A study of Rattus norvegicus with 4 samples.

Results

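Unnamed unannotated transcribed loci are stretches of the rat genome that were assembled from the sequenced RNA and carry no gene name. The study's table does not assign them to a gene of the annotation it used, but their spans can still overlap a named gene. The members were the rows of the deposited gene table that had the status of an unannotated gene, no gene name and a genomic span of at least 300 bp. Of the 27832 rows of the table, 4057 met this rule, and 87 further unnamed unannotated rows were shorter than 300 bp. The levels below are described for the 1373 loci whose mean over the 4 libraries was at least 1 FPKM, which is 33.8% of the loci and 8.61% of the 15944 rows of any kind at that level. FPKM is the number of sequenced fragments per kb of exon, scaled by the number of mapped fragments, so levels can be compared between loci of different length.

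The study sequenced poly(A)-selected RNA from the middle ear mucosa of SD (Sprague-Dawley) rats 1 week after an injection of 50 µL into the middle ear cavity of the right ear, to ask how mucosa colonised by 1 bacterial species differs from mucosa colonised by both. The Media library came from rats given medium only, the MRSA library from rats given methicillin-resistant Staphylococcus aureus, the PA library from rats given Pseudomonas aeruginosa, and the MRSA + PA library from rats given the mixed culture. Each condition was 1 library, so no difference has a replicate check and no p-value is given. The number of rats behind a library is not given in the sources used here, and the table holds no read counts. The mucosa was scraped from the bulla, so a lower level cannot be told apart from fewer cells of a type.

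The 4 libraries also differed in tissue content. The 17 mucosal epithelium genes summed to between 11021 and 27167 FPKM, with at least 16 of 17 above 0 in every library. The 34 matched skeletal muscle genes summed to 13209 FPKM with Media, 4993 with MRSA, 40.4 with PA and 32.5 with MRSA + PA, and the 14 matched cornified epithelium genes to 14.3, 41.1, 2238 and 79.6 FPKM in the same order.

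Transcripts outside annotated genes are found in every deeply sequenced mammalian tissue. Many are long noncoding RNAs, which are spliced and polyadenylated like mRNA but have no long reading frame. Others are divergent transcripts that leave a gene's promoter in the opposite direction, antisense transcripts that run across a gene on the other strand, unannotated first or last exons of known genes, precursors of microRNAs, or copies of repeats and gene families. An annotation of the rat genome is also less complete than that of human or mouse, so a transcript without a name here may have one in another species.

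The neighbours of the loci in a later annotation show what kinds of gene lie in the same places. For 451 of the 1005 loci that overlapped no named row, the flanking genes on both sides were also found in RefSeq's GRCr8 annotation, on the same chromosome and with a similar gap between them. Between these flanking genes, GRCr8 holds at least 1 long noncoding RNA for 264 loci (58.5%), a long noncoding RNA and no protein-coding gene for 152, and no gene at all for 85. A total of 16 loci lay between flanking genes that enclose a long noncoding RNA with a proper symbol, and 16 lay, in 13 intervals, between genes that enclose a microRNA hairpin. A position between the same flanking genes is a description, and no locus was matched to any of these genes by sequence. The loci of this and the next 2 paragraphs were picked from these intervals after their values were seen.

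Of the intervals with a named long noncoding RNA, the one of highest level lay between Mrpl23 and Igf2, where GRCr8 holds H19 and its microRNA Mir675. H19 is an imprinted long noncoding RNA that is abundant in fetal tissues and in muscle. The locus there, chr1:222639222-222641914 on the minus strand, was at 233 FPKM with Media, 164 with MRSA, 26.4 with PA and 27.3 with MRSA + PA. The Media and MRSA values were thus several times those of PA and MRSA + PA (the skeletal muscle sums given above were also higher in Media and MRSA, by a much larger factor, and the part of muscle RNA in this locus was not tested). The interval between Dlk1 and Rtl1 holds Meg3, another imprinted noncoding RNA, and the 31529 bp locus chr6:142821659-142853187 there was at 20.4, 6.07, 4.97 and 1.85 FPKM for Media, MRSA, PA and the mixture. Between CSNK1A1 and Il17b lies Carmn, a noncoding RNA of smooth muscle and the host of Mir143 and Mir145, and the locus chr18:56196830-56202328 was at 2.78, 1.99, 1.57 and 1.22 FPKM. The locus chr3:117945513-117959060, between the flanking genes that enclose Oip5-as1, was at 31.7, 33.8, 40.7 and 31.9 FPKM, and the locus chr14:36490946-36492213 in the interval of Dancr at 8.84, 5.97, 6.31 and 8.39. These last loci varied little across the libraries, in contrast to the H19 and Meg3 intervals.

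Of the mature microRNAs of the hairpins in 4 of these intervals, 6 chosen as the better known arms are shown from RefSeq (GRCr8), because these hairpins lie in the same intervals as the loci and a microRNA is best known by its seed. The seed, bases 2 to 8, is in capitals and the rest in lower case, from 5′ to 3′.
rno-miR-675-5p: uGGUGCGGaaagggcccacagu
rno-miR-675-3p: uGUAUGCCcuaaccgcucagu
rno-miR-22-3p: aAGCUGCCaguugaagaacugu
rno-miR-142-5p: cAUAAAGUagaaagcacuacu
rno-miR-142-3p: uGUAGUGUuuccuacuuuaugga
rno-miR-223-3p: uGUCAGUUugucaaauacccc
No 2 of these 6 share a seed. The libraries held poly(A) RNA and did not measure mature microRNAs, so the values below are those of the longer transcripts. The locus between Wdr81 and Tlcd2, the interval of Mir22, was at 15.4 FPKM with Media, 12.4 with MRSA, 7.78 with PA and 9.37 with MRSA + PA. The locus between Mpo and SUPT4H1, the interval of Mir142, a microRNA of blood cells, was at 2.83, 7.61, 6.61 and 3.89 FPKM. The locus between Msn and VSIG4, the interval of Mir223, which is abundant in neutrophils and other myeloid cells, was at 1.76, 2.63, 6.12 and 3.53 FPKM. The Mir142 and Mir223 intervals were thus lowest in Media and the Mir22 interval was highest there. The 13 matched neutrophil genes summed to 586, 990.2, 1315 and 998 FPKM in the same order, and the part of these cells in the locus levels was not tested.

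Nearly every locus was above 0 FPKM in every library. Of the 4057 loci, 3883 were above 0 with Media, 3962 with MRSA, 3912 with PA and 3856 with MRSA + PA, while 1501, 1367, 1356 and 1260 reached 1 FPKM. Of all 27832 rows, 21633, 21868, 21898 and 21504 were above 0 in the same order, and 15834, 15742, 15711 and 15320 reached 1 FPKM. The loci were assembled from the sequenced RNA itself, so their high share above 0 is largely set by how they were found. Most loci were weakly transcribed. The median of the mean level was 0.591 FPKM over the 4057 loci, against 4.38 over the 21675 named rows of annotated genes of the same minimum span. Among the 1373 loci past 1 FPKM, 596 had a mean under 2 FPKM, 440 a mean from 2 to 5, 223 from 5 to 20, 81 from 20 to 100 and 33 of 100 or more, with a median of 2.31 FPKM. All rows past 1 FPKM had a median of 11.1 FPKM. By library, the median of the 1373 loci was 2.35 FPKM with Media, 2.33 with MRSA, 2.29 with PA and 2.09 with MRSA + PA.

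The few strong loci carried much of the signal. Together the 1373 loci made up 2.67% of the FPKM of all rows of at least 300 bp with Media, 2.13% with MRSA, 3.07% with PA and 2.65% with MRSA + PA. The 10 loci of highest mean held 44.4%, 29.8%, 42.9% and 49% of that share in the same order. These shares rest on few loci, some of them listed at 0 in part of the libraries. The largest value in Media was the 4222 FPKM of a chromosome 19 locus listed at 0 elsewhere. An exact 0 can be a failed estimate, so differences in these shares between libraries are uncertain.

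The span from start to end includes introns and is not a transcript length. Its median was 2537 bp among the 1373 loci, against 24159.5 bp among named rows of annotated genes past 1 FPKM. A strand was given for 822 loci (401 plus, 421 minus) and not for 551. In libraries whose kit is not stated to keep the strand, an assembled transcript takes its strand from its splice junctions. The loci with a strand had a median span of 6319.5 bp and a median mean of 2.55 FPKM, and those without had 729 bp and 2.00 FPKM. Of the 114 loci with a mean of at least 20 FPKM, 88 had a strand.

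All 21 chromosomes in the table held such loci. By number, chromosome 1 had the most (140), and chromosomes 16 and 18 the fewest (32 each). As a share of the rows past 1 FPKM on the same chromosome, the loci made up between 6.37% (chromosome 3) and 15.1% (chromosome 20), with chromosome 14 next at 12%. Chromosome 20, which carries the rat major histocompatibility complex, also had 9 of the 33 loci with a mean of 100 FPKM or more. The 76 loci of chromosome 20 held 21.1% of the loci's FPKM with Media, 24.4% with MRSA, 41.3% with PA and 42.1% with MRSA + PA.

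Most loci lay beside or across a named row. Of the 1373 loci, 368 (26.8%) overlapped a named row, 286 lay within 1 kb of one, 188 at 1 to 5 kb, 120 at 5 to 10 kb, 250 at 10 to 50 kb, 81 at 50 to 100 kb and 80 beyond 100 kb. In all 962 (70.1%) were within 10 kb, and the median distance was 1857 bp. Named rows of annotated genes past 1 FPKM were about as close to another named row, with 69.4% within 10 kb and a median of 3152 bp. The level did not change much with distance, since the median mean was 2.52 FPKM for overlapping loci, 2.20 within 1 kb and 2.05 beyond 100 kb.

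The loci were unevenly placed around their neighbours. Where a locus overlapped a named row and both had a strand, 238 of 271 (87.8%) were on the opposite strand, as antisense transcripts are. The other 33 were on the same strand and had a median mean of 15.9 FPKM, against 2.53 FPKM for the 238. Only rows with the status of an unannotated gene were members. Transcripts that the assembly gave to an annotated gene are thus left out of these counts, and no other class of rows was compared for strand. Of all overlapping loci, 191 lay wholly inside the span of the named row. Within 1 kb of a named row with a strand, 201 of 274 loci (73.4%) lay before its 5′ end and 73 past its 3′ end. Unannotated rows with a gene name lay before the 5′ end of their nearest named row in 36 cases (51.4%), and named rows of annotated genes in 1022 cases (48.3%). Unnamed rows of annotated genes did so in 7 of only 10 cases (70%), a share close to that of the loci. Of the 201 loci just before a 5′ end, 71 ran away from the neighbour on the opposite strand, as divergent promoter transcripts do, 23 ran towards it on the same strand and 107 had no strand. Reads from overlapping partners cannot be told apart without strand, so the levels of overlapping loci are uncertain.

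**Figure D1:**
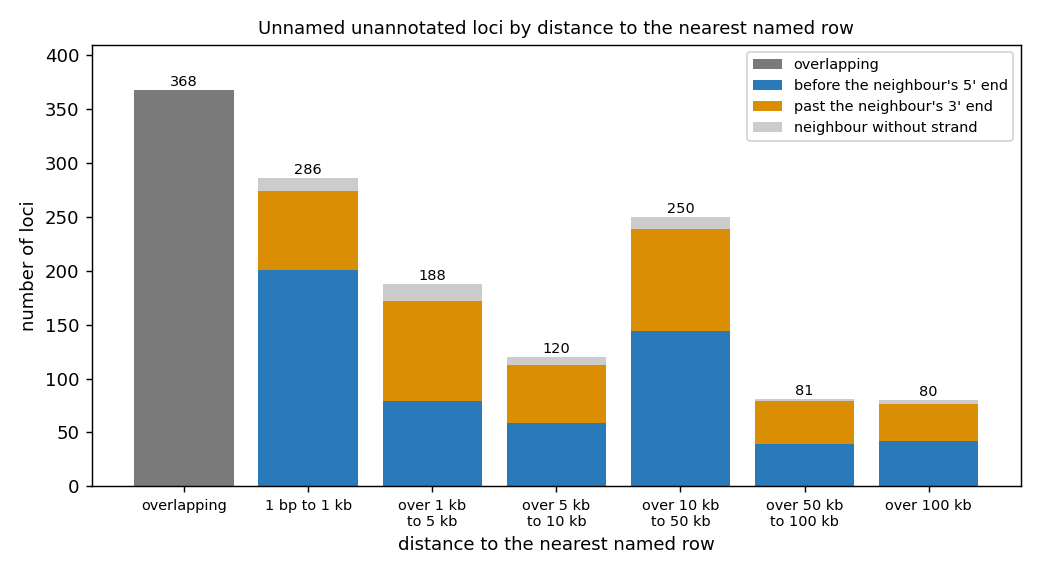
Number of the 1373 unnamed unannotated loci (vertical axis) in each class of distance to the nearest named row (horizontal axis), with colours for the side of the neighbour on which the locus lay. Overlap was the most frequent class with 368 loci, and the 201 loci before a 5′ end outnumbered the 73 past a 3′ end within 1 kb but not in the next class.

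The 10 loci of highest mean included 5 in the histocompatibility complex, described further on. Among the other 5, chr19:3402645-3407914 on the minus strand, 92449 bp from a row named for an immunoglobulin kappa variable segment (KV3A9_MOUSE), was at 4222 FPKM with Media, while the other 3 libraries listed it at 0. An exact 0 can be a failed estimate, so the difference at this locus is uncertain. The 394 bp locus chr13:78794108-78794501, 1253 bp past the 3′ end of a short unannotated row named MEF-1, was at 738 FPKM with Media, 1124 with MRSA, 592 with PA and 1038 with MRSA + PA. The MEF-1 row, on the same strand, was far higher, at 86176, 76232, 87515 and 99736 FPKM in the same order. Whether the locus is separate from it was not tested. The locus chr3:162901242-162902907, 10848 bp from an unannotated row named Nedd4, was at 676, 242, 641 and 617 FPKM, so MRSA stood below the rest.

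Both remaining loci of this set were lowest in Media. The 5227 bp locus chr8:61990173-61995399 lay 3439 bp past the 3′ end of Scamp5, on the same strand. Its level was 3.19 FPKM with Media, 344 with MRSA, 610 with PA and 886 with MRSA + PA, which is 6.71, 7.53 and 8.07 above Media on the log2 scale with 0.1 FPKM added. Scamp5, a secretory carrier membrane protein best known from nerve cells, was itself at 6.73, 14.0, 14.4 and 8.995 FPKM in the same order. The locus chr1:234158668-234181200 overlapped a retroviral pol-like row and was at 172, 505, 528 and 562 FPKM for Media, MRSA, PA and the mixture.

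**Figure D2:**
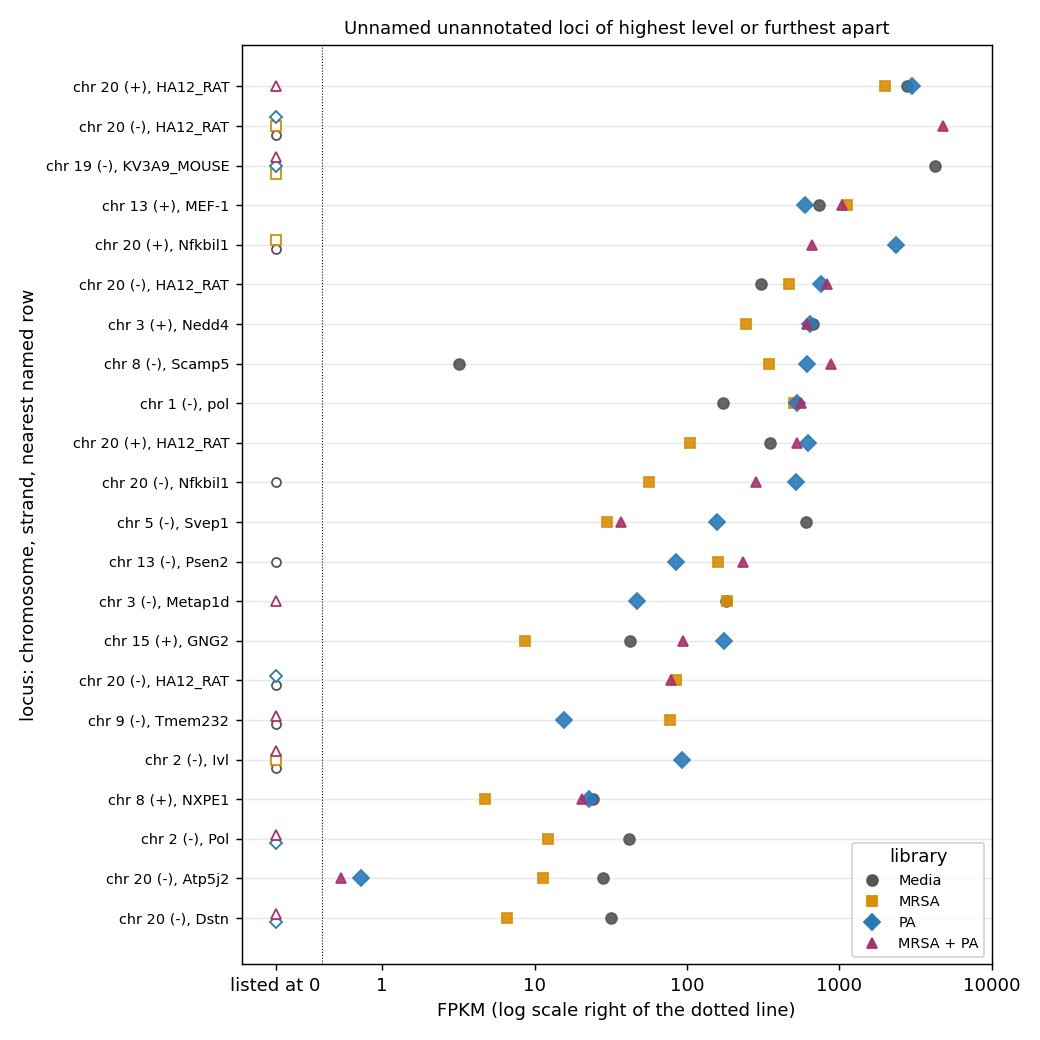
FPKM (log axis) of the 22 unnamed unannotated loci that were among the 10 of highest mean or among the furthest apart in a pair of libraries, 1 locus a line, with 1 symbol for each library. Open symbols at the left mark a library in which the locus was listed at 0, as for MRSA + PA in the top line and for MRSA, PA and MRSA + PA at the chromosome 19 locus.

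Loci tended to stand alone, but the histocompatibility complex held crowded groups. Joining loci within 10 kb of one another gave 1228 groups, of which 1120 were single loci and 108 held 2 or more. The 3 largest groups all lay on chromosome 20 beside or across rows named HA12_RAT, a class I heavy chain of the kind that presents peptides to cytotoxic T cells. They held 11, 9 and 8 loci over 82219, 290804 and 32199 bp. Class I genes are near-identical copies of one another, so the level of any single row there is uncertain, and the sum over a group is given first.

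The group of 11, chr20:7397156-7479374, summed to 3197 FPKM with Media, 2320 with MRSA, 3767 with PA and 5502 with MRSA + PA. Most of that came from a pair of loci of the same span on opposite strands. The plus-strand locus chr20:7432712-7474027 was at 2762, 1986 and 3022 FPKM in Media, MRSA and PA and listed at 0 in MRSA + PA. The minus-strand locus chr20:7432707-7474021 was listed at 0 in Media, MRSA and PA and was at 4764 FPKM in MRSA + PA. Where one strand had a value the other was thus listed at 0 in all 4 libraries, and an exact 0 can be a failed estimate. Of 55 overlapping pairs of loci on opposite strands in the table, 39 were on chromosome 20, and 3 of the 55 shared at least 90% of the longer span. Also in this group, chr20:7429639-7430967 was at 349, 105, 628 and 528 FPKM, and chr20:7465749-7467158 was listed at 0 in Media and PA and at 84.2 and 78.9 FPKM in MRSA and MRSA + PA. The other 7 loci of the group were between 1.27 and 40.7 FPKM in every library.

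The group of 9, chr20:6719436-7010239, runs across the genes of Nfkbil1, Ltb and Tnf, the last a central inflammatory cytokine. Its sum was 708 FPKM with Media, 1064 with MRSA, 4166 with PA and 2372 with MRSA + PA. The plus-strand locus chr20:6719436-6969716, with a span of 250281 bp, was listed at 0 in Media and MRSA and was at 2366 FPKM in PA and 664 in MRSA + PA. The minus-strand locus chr20:6757048-7010239 was listed at 0 in Media and was at 56.5, 518 and 284 FPKM in MRSA, PA and MRSA + PA. These spans cross several named genes, so a locus of this kind does not stand for 1 gene.

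Other members of the group were present in all 4 libraries. The locus chr20:6973645-6998203 was at 309, 466, 756 and 827 FPKM for Media, MRSA, PA and the mixture, lowest in Media. The locus chr20:6757085-6854126 was at 19.7, 82.3, 84.8 and 139 FPKM, again lowest in Media. By comparison, chr20:6794255-6844488 was at 283, 282, 285 and 280 FPKM, the smallest range of any locus with a mean of at least 5 FPKM. B2m, the light chain that pairs with class I heavy chains and is not a copy of them, was at 1772, 4739, 3479 and 4447 FPKM.

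The group of 8, chr20:134170-166368, was weaker and summed to 24.1 FPKM with Media, 53.1 with MRSA, 57.5 with PA and 77.1 with MRSA + PA. Its strongest locus, chr20:154772-155625, lay 245 bp past the 3′ end of an HA12_RAT row and was at 12.5, 22.5, 21.5 and 37.2 FPKM. All 8 loci of this group were lowest in Media.

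**Figure D3:**
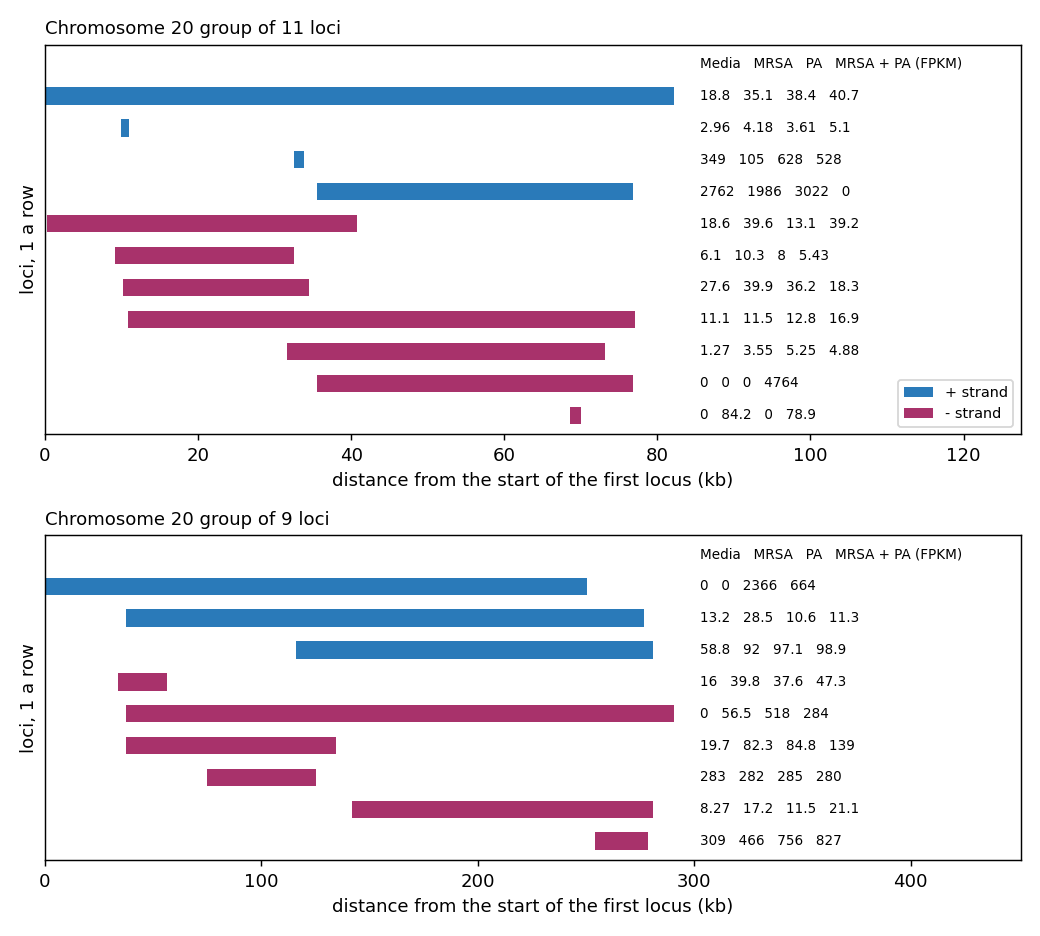
Position of the loci in the chromosome 20 groups of 11 and 9, in kb from the start of the first locus, with 1 bar a locus, colours for the strand, and the FPKM for Media, MRSA, PA and the mixture at the right. In the upper panel the bars of the same span on opposite strands carry 2762, 1986, 3022 and 0 FPKM on the plus strand and 0, 0, 0 and 4764 on the minus strand.

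The libraries were compared in 6 pairs, counting loci at least 2-fold apart on the log2 scale with 0.1 FPKM added, and each count is read against the share of all 15944 rows past 1 FPKM that were as far apart in the same direction. Against Media, 205 loci (14.9%) were higher in MRSA, where 8.47% of all rows were, and 145 (10.6%) were lower, where 4.95% of all rows were. In PA, 242 loci (17.6%) were higher than in Media against 10% of all rows, and 213 (15.5%) lower against 7.8%. In MRSA + PA, 197 loci (14.3%) were higher than in Media against 7.78% of all rows, and 221 (16.1%) lower against 7.83%. The median difference of the 1373 loci was 0.00 for MRSA, -0.02 for PA and -0.08 for MRSA + PA, beside 0.05, 0.07 and 0.05 for all rows. The loci thus spread in both directions around medians that were small but each below that of all rows. The shares past 2-fold were above those of all rows on both sides.

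The inoculated libraries were closer to one another. Between MRSA + PA and MRSA, 85 loci (6.19%) were higher in the mixed library against 1.61% of all rows, and 177 (12.9%) were lower against 5.73%. Between MRSA + PA and PA, 102 loci (7.43%) were higher in the mixed library against 2.5% of all rows, and 148 (10.8%) were lower against 4.27%. Between PA and MRSA, 110 loci (8.01%) were higher in PA against 3.54% of all rows, and 144 (10.5%) were lower against 5.03%. Higher loci were 43.3% of those apart between PA and MRSA, and 54.1% when the libraries were scaled to equal FPKM sums. For MRSA + PA against PA, the same share was 40.8%, and 30.8% with equal sums.

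**Figure D4:**
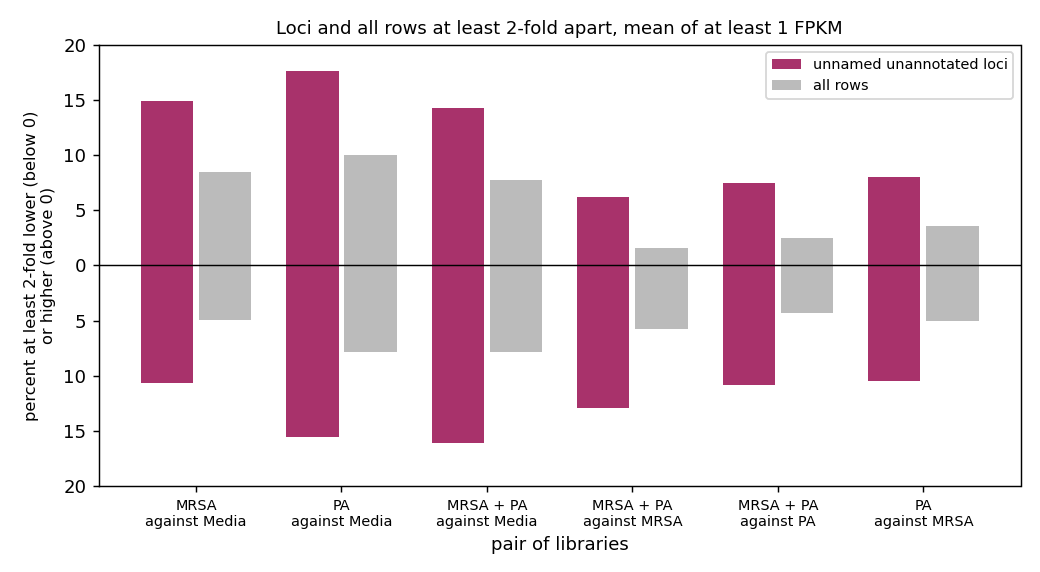
Percent of the 1373 unnamed unannotated loci and of all 15944 rows with a mean of at least 1 FPKM that were at least 2-fold higher (above 0) or lower (below 0), for each pair of libraries (1 library each). The bars of the loci are taller than those of all rows in each pair and direction, for example 17.6% against 10% for higher in PA than in Media.

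The loci were weaker than other rows, so the shares were also taken by level. With a mean from 1 to 2 FPKM, 27.5% of loci and 28.6% of all other rows were at least 2-fold apart in either direction between MRSA and Media. With a mean of 20 FPKM or more the shares were 23.7% of 114 loci and 9.84% of 5141 other rows. PA against Media gave 37.1% of loci and 36.9% of other rows in the weakest class, and 28.1% and 11.5% in the strongest. MRSA + PA against Media gave 32.4% and 33.9%, then 35.1% and 10.3%. In the weakest class the shares of loci and other rows thus lay close together, and in the strongest class they lay well apart. Of the 1373 loci, 59 (4.3%) were listed at 0 in at least 1 library, against 1.86% of all rows and 0.997% of named rows of annotated genes. The share was larger in other classes, at 6.18% of unannotated rows with a gene name and 21.7% of unnamed rows of annotated genes. A total of 4 loci were listed at 0 in 1 library and over 20 FPKM in the other 3, among 13 such rows of any kind past 1 FPKM. Of unannotated rows with a gene name 1 was, and of the 13546 named rows of annotated genes 0 were.

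**Figure D5:**
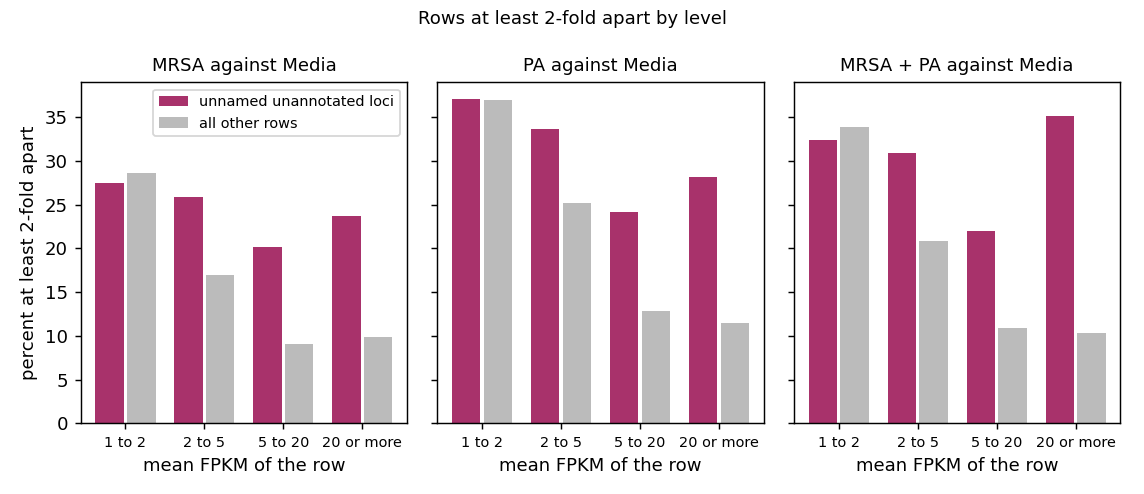
Percent of rows at least 2-fold apart in either direction against Media (vertical axis), by class of mean FPKM (horizontal axis), for the unnamed unannotated loci and for all other rows, 1 panel for each inoculated library. Both bars are near 28% in the lowest class for MRSA, while in the highest class the bar of the loci stands at 23.7% and that of other rows at 9.84%.

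Loci far above Media in the inoculated libraries included 1 near Psen2. The 2394 bp locus chr13:103548068-103550461, 887 bp before the 5′ end of this gene, which encodes a subunit of the gamma-secretase protease, was listed at 0 in Media and was at 160 FPKM with MRSA, 85.1 with PA and 233 with MRSA + PA. Psen2 itself was at 18.1, 28.5, 24.1 and 27.7 FPKM for Media, MRSA, PA and the mixture. In the interval between Psen2 and Itpkb, GRCr8 holds 2 long noncoding RNAs. The locus chr9:112758104-112788680 overlapped Tmem232 and was listed at 0 in Media and MRSA + PA, with 77.2 FPKM in MRSA and 15.6 in PA. Outside the rule for named loci, and chosen after its values were seen, chr2:222202432-222205230 was listed at 0 in Media and was at 18.9, 73.6 and 12.9 FPKM in MRSA, PA and MRSA + PA. This locus lay 35135 bp past the 3′ end of Fam46c, a poly(A) polymerase gene of plasma cells, which was itself at 5.47, 7.98, 6.01 and 8.50 FPKM.

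A locus inside the kininogen gene Kng1, chr11:84491570-84491935, also chosen after its values were seen, was lowest in Media and highest in PA, and so was its host. It was at 21.8 FPKM with Media, 100.2 with MRSA, 264 with PA and 109 with MRSA + PA, and the Kng1 row was at 10.9, 63.2, 172 and 37.3 FPKM. Kininogen is the precursor of bradykinin, a mediator of swelling and pain.

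After the chromosome 19 locus above, the one furthest below Media in MRSA, among loci with a mean of at least 5 FPKM, was chr5:79286966-79297412, 3602 bp past the 3′ end of Svep1, an extracellular matrix protein, on the same strand. Its level was 604 FPKM with Media, 29.8 with MRSA, 157 with PA and 37.0 with MRSA + PA, which is -4.34, -1.94 and -4.02 on the log2 scale against Media. Svep1 was at 2.96, 1.58, 1.86 and 1.51 FPKM for Media, MRSA, PA and the mixture. The locus chr15:8845287-8898653, 36024 bp before the 5′ end of GNG2, a G protein gamma subunit, was at 42.0, 8.68, 176 and 94.9 FPKM, so it was below Media in MRSA and above it in PA and MRSA + PA. The locus chr8:51116427-51202412 was at 24.2, 4.72, 22.7 and 20.5 FPKM and stood apart in MRSA.

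Several loci were high in Media, lower in MRSA and lowest or listed at 0 in PA and MRSA + PA. The locus chr2:173418579-173421440 was at 41.7 FPKM with Media and 12.3 with MRSA, and was listed at 0 for PA and MRSA + PA. The locus chr20:817518-840023, across an unannotated row named Dstn on the opposite strand, was at 31.9 and 6.58 FPKM in Media and MRSA and listed at 0 in PA and MRSA + PA. The locus chr20:21840118-21855483, 428 bp past the 3′ end of an unannotated row named Atp5j2, was at 28.3, 11.4, 0.730 and 0.536 FPKM. The skeletal muscle genes Ckm (1028, 409, 0.187 and 0.0901 FPKM) and Mb (1177, 461, 0.888 and 0.138 FPKM) were also highest in Media and next highest in MRSA, and the part of muscle RNA in these loci was not tested.

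A further locus was similar in Media and MRSA and lower in PA and MRSA + PA. The 599 bp locus chr3:64571838-64572436, 53 bp before the 5′ end of Metap1d on the opposite strand, was at 180.3 FPKM in Media, 184 in MRSA and 47.1 in PA and listed at 0 in MRSA + PA. Metap1d, a mitochondrial methionine aminopeptidase, was at 13.0, 7.24, 6.80 and 6.77 FPKM.

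The PA library held loci that were listed at or near 0 elsewhere. Only 10 of the 1373 loci were above 0 FPKM in just 1 library, of which 6 were in PA, 2 in Media, and 1 each in MRSA and MRSA + PA. Of all 15944 rows, 55 were above 0 in 1 library, and 37 of these were in PA. The 5 weaker ones of these 10 were named after their values were seen.

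The 6 loci above 0 in PA alone lay in the epidermal stretch of chromosome 2 described below, across Krt5 or near KLK5. The locus chr2:212138819-212139397, 29779 bp past the 3′ end of Ivl, which encodes the cornified envelope protein involucrin, was at 92.4 FPKM in PA. On the opposite strand and with the same end, chr2:212137095-212139397 was at 19.4 FPKM in PA. The loci chr2:211627652-211628691 near XP32 and chr2:211916905-211918530, 171151 bp from Smcp, were at 13.1 and 6.76 FPKM. The locus chr7:141222616-141224024, across the basal keratin gene Krt5, was at 8.29 FPKM, and chr1:100857194-100858062, 2784 bp past the 3′ end of the skin protease gene KLK5, at 6.79 FPKM. Krt5 itself was at 72.1, 80.7, 275 and 139 FPKM for Media, MRSA, PA and the mixture, so it was present in every library. KLK5 was at 24.7 FPKM in PA and listed at 0 elsewhere, and Smcp was listed at 0 in every library.

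The stretch of 1604 kb from Hrnr to Prr9 on chromosome 2 is the epidermal differentiation complex, where genes of the cornified envelope lie side by side. Its 6 loci of any level summed to 140.4 FPKM in PA, 0.153 in MRSA + PA and 0 in Media and MRSA. The 6 named rows past 1 FPKM in the stretch summed to 336 FPKM in PA and to between 0.179 and 0.315 in the others. These 6 rows, and the 5 of the loci that were past 1 FPKM, passed the limit only through their PA values. Their excess in PA thus follows from the filter and is no separate support. Of the cornified markers, Krt1 was at 0.224, 0.917, 465 and 0.0308 FPKM for Media, MRSA, PA and the mixture, and Sprr1a at 161 FPKM in PA. A single library carries this pattern, and the part of skin in the scraped PA tissue was not tested.

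The loci beyond the histocompatibility complex and the epidermis that stood in 1 library were few. The locus chr13:87867810-87930263, 23896 bp before the 5′ end of the dermatopontin gene DPT, was at 15.4 FPKM in MRSA and listed at 0 elsewhere. The 327 bp locus chr12:48100435-48100761 was at 9.19 FPKM with Media, and the other 3 libraries listed it at 0.

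Some loci lay beside marker genes of cell types, with 10 loci within 10 kb of 1 of the 211 matched genes in 14 lists, across 8 lists. The same count was not taken for other rows, so it does not show whether the loci lay near marker genes less or more often. Across the corneodesmosin gene Cdsn on the opposite strand, chr20:5792898-5794753 was at 0.246, 0.214, 15.9 and 0.448 FPKM for Media, MRSA, PA and the mixture. This locus passed the limit of 1 FPKM only through its PA value, so its excess in PA follows from the filter. Beside Col1a1, the main collagen of connective tissue, chr10:82551719-82560867 was at 14.2, 11.4, 14.1 and 15.5 FPKM. The locus chr7:139682405-139683308, 6447 bp before the 5′ end of the cartilage collagen gene Col2a1, was at 10.4, 12.1, 14.1 and 10.4 FPKM. Inside the span of that Col1a1 locus lay 2 weak ones without a strand, chr10:82554286-82554917 at 2.14, 0.705, 0.965 and 0.627 FPKM and chr10:82555197-82555888 at 2.63, 0.521, 0.753 and 0.993 FPKM. Both weak loci were highest in Media, while the stronger Col1a1 locus and the Col2a1 locus varied little.

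The remaining marker loci were weaker. Near the T cell co-stimulator Cd28, chr9:67338455-67355235 was at 1.92, 4.51, 2.48 and 1.99 FPKM for Media, MRSA, PA and the mixture. Across the scavenger receptor gene Msr1 of macrophages, chr16:56551732-56556945 was at 0.299, 1.95, 0.369 and 1.74 FPKM, higher in both libraries that had received MRSA. Msr1 itself was at 6.34, 22.6, 26.8 and 18.1 FPKM, highest in PA, so the gene did not share this pattern. Near Dnai2, a dynein of motile cilia, chr10:102918319-102920034 was at 2.95, 5.84, 3.94 and 3.56 FPKM. Near Sox10, a regulator of Schwann cells, chr7:120397980-120452068 was at 2.25, 1.26, 0.762 and 2.52 FPKM. Near Pou2af1, a B cell co-activator, chr8:54096332-54163214 was at 2.43, 1.73, 3.51 and 1.43 FPKM. Of the genes themselves, Cd28 was at 1.46, 3.07, 6.01 and 3.50 FPKM and Dnai2 at 10.3, 12.4, 9.73 and 7.44. Sox10 was at 2.08, 1.03, 0.855 and 1.03 FPKM and Pou2af1 at 2.77, 5.08, 4.75 and 4.42. None of the loci past 1 FPKM lay within 10 kb of a gene of the mucosal epithelium, neutrophil, cytotoxic cell, skeletal muscle, erythroid or adipocyte lists. This absence was not compared with other rows either, and no result about the loci is drawn from it.

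A locus at times differed in the same direction as its nearest gene. Counts are of loci at least 2-fold apart from Media in the same direction as a neighbour that was itself 2-fold apart, and are read beside the share of all loci of the same distance class, with a neighbour past 1 FPKM, that differed in that direction. Among loci that overlapped a named row at least 2-fold higher in MRSA, 18 of 27 were higher too, where 16.5% of the class were. With the neighbour 1 bp to 10 kb away the count was 12 of 29 (10% of the class), and beyond 10 kb it was 10 of 16 (17.1%). For higher in PA the counts were 22 of 46 overlapping (18%), 18 of 35 within 10 kb (13.3%) and 9 of 23 beyond (15.7%). For higher in MRSA + PA they were 18 of 24 (15.9%), 8 of 24 (9.46%) and 7 of 14 (15.3%). Each of these 9 counts was above the share of its class, with 0 to 4 loci apart in the other direction.

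Neighbours that were 2-fold lower were fewer, and the counts less uniform. For lower in MRSA, 0 of 4 overlapping loci were lower too (6.61% of the class), 4 of 8 within 10 kb (9.27%) and 2 of 8 beyond (12.5%). For lower in PA the counts were 2 of 11 (8.41%), 14 of 25 (14.3%) and 9 of 27 (21.6%). For lower in MRSA + PA they were 5 of 12 (11.4%), 10 of 21 (15.1%) and 5 of 15 (20.9%). In each inoculated library the share was largest for neighbours 1 bp to 10 kb away. Overlapping rows can share reads, so their counts do not stand for separate measurements. Several loci can also have the same nearest row, as in the chromosome 20 groups, so in this and the previous paragraph 1 neighbour can be counted more than once.

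The 80 loci more than 100 kb from any named row were led by chr15:18031734-18259464, 237552 bp from Sntn, a gene of motile cilia, at 104 FPKM with Media, 28.0 with MRSA, 84.5 with PA and 73.8 with MRSA + PA. The locus chr7:2088900-2089352, 191252 bp from Wibg, was at 50.3, 74.0, 59.8 and 89.99 FPKM. The 335 bp locus chr4:17879182-17879516, 255622 bp from Sema3a, was at 56.1, 60.6, 36.7 and 26.3 FPKM. These remote loci were present in all 4 libraries, and the last was lowest in MRSA + PA. The next, chr9:95489010-95492544 and chr14:48344009-48344762, stayed between 18.4 and 27.5 FPKM in every library.

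The longest spans were not those of the strongest loci. The longest, chr17:39549544-40008968, covered 459425 bp near a row named Rpl29 and was at 3.69, 5.76, 15.3 and 12.2 FPKM for Media, MRSA, PA and the mixture. The next 4, on chromosomes 1, 11, 17 and 5, covered 270090 to 368937 bp and were between 0.698 and 4.01 FPKM in every library.

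Some loci varied little across the libraries. Of the 337 loci with a mean of at least 5 FPKM, 87 had a range under 0.5 on the log2 scale over the 4 libraries, 195 a range under 1 and 57 a range of 2 or more, with a median of 0.83. After the histocompatibility locus already given, the steadiest was chr13:83747018-83751211, across ZBTB37 on the opposite strand, at 21.3, 20.2, 21.6 and 21.9 FPKM. The locus chr12:40440053-40441760, 1500 bp past the 3′ end of Mlxip, was at 11.2, 10.7, 10.8 and 10.2 FPKM. The locus chr2:173926340-173930079, across Slc33a1 on the opposite strand, was at 20.4, 20.2, 20.4 and 22.3 FPKM, and chr5:154155950-154157649 near Trnau1ap at 26.0, 26.7, 27.6 and 28.9 FPKM.

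The limit of 1 FPKM cut through a continuous range of levels. Just inside it were chr20:51300727-51318527 (1.85, 0.700, 0.587 and 0.865 FPKM) and chr6:34191913-34225390 (0.916, 1.13, 1.25 and 0.728 FPKM). Just outside were chr6:113665169-113669891 (1.32, 1.03, 1.14 and 0.502 FPKM) and chr3:117680150-117685583 (0.766, 0.959, 1.04 and 1.22 FPKM).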

How the data were processed

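RNA from middle ear mucosa was sequenced as 1 poly(A) library for each of 4 conditions. Per the labels and the study's methods, the authors aligned reads with STAR 2.3.0e, assembled transcripts with Cufflinks 2.1.1 against Ensembl release 72, masked noncoding RNA regions and deposited FPKM per row in 1 table. No genome build is named in that table, and the methods name a human reference although its chromosomes and gene names are those of the rat. Coordinates are given as in the table, and no sequence of a locus could be read. A further 3 tables hold the authors' log2 ratios, p-values and q-values, with 12 columns of values of the same libraries. None of them was used.

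Rows were chosen by status, missing name, span of at least 300 bp and mean of at least 1 FPKM. Differences are log2 ratios after adding 0.1 FPKM, and a 2-fold limit gave the counts. Distance is that to the nearest row with a gene name, 0 for overlap. RefSeq GRCr8 was used only for the genes and microRNAs between the same flanking genes, for gaps of at most 300 kb that differed by at most 1.25 times between the annotations. With 1 library a condition there was no test. The files hold no read counts, so no counting interval is given.

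Named loci were the 10 of highest mean, the furthest above and below in each pair with a mean of at least 5 FPKM (4 each way against Media, 2 otherwise), 5 each for 1 library only, remote, longest and steadiest, the strongest near each gene list, the 3 largest groups, and 2 each side of 1 FPKM. The members, lists and tests were chosen with earlier results of these data known. Calculations used Python with numpy and pandas and were tested on simulated data.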

Additional observations from a re-analysis of the deposited data

How the results depend on the processing

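Counts stayed within 1.5 times of those reported when 0.01 FPKM was added, under median-of-ratios scaling, with equal FPKM sums, with loci within 10 kb merged, among loci above 0 in all 4 libraries and, added after the data were seen, without chromosome 20. The number of loci within 10 kb of a named row did so at 5 kb, at 50 kb and against named rows of annotated genes, and was 239 among the 337 loci whose mean reached 5 FPKM. The other changes keep more or fewer loci by their construction. In the order higher then lower for MRSA, PA and MRSA + PA against Media, then MRSA + PA against MRSA, MRSA + PA against PA, and PA against MRSA, adding 1 FPKM gave 123, 82, 160, 118, 118, 128, 43, 103, 49, 76, 65 and 77 loci. With no filter on level (4057 loci) the counts were 661, 750, 845, 884, 578, 960, 357, 696, 367, 689, 584 and 561. When means had to reach 5 FPKM the counts were 45, 27, 55, 31, 49, 40, 19, 37, 19, 30, 23 and 25. At 1.5-fold they were 323, 280, 352, 376, 303, 363, 179, 332, 211, 297, 230 and 305. Among the 411 loci more than 10 kb from a named row they were 77, 62, 82, 92, 69, 89, 32, 66, 35, 58, 47 and 48. With a span of at least 1000 bp (980 loci) they were 148, 74, 180, 134, 135, 135, 42, 111, 64, 92, 70 and 96. Counting loci at 1 FPKM or more in place of above 0 gave 1501, 1367, 1356 and 1260 for Media, MRSA, PA and the mixture. Equal FPKM sums moved the median of all rows for PA against MRSA from 0.00 to 0.11, for PA against Media from 0.07 to 0.24 and for MRSA + PA against PA from -0.03 to -0.16 on the log2 scale. No paired analysis was possible because each condition is 1 library. Without replicates or read counts, the counts have no error, and differences of weak loci cannot be told apart from counting noise.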
